A study of Mus musculus with 26 samples.

Results

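The 4 miRNA entries described here were mmu-mir-7a-1, mmu-mir-7a-2, mmu-mir-7b and mmu-mir-671 of the mouse, the small RNA members of a network built around the circular RNA Cdr1as. They were chosen by name, as the miRBase precursor entries that carry these names, and were 4 of 1054 miRNA entries in a table of 1360 small RNA entries. All 4 were abundant enough to be among the 463 entries tested. The hippocampus was split into its dorsal part (dHC) and its ventral part (vHC), and small RNA was sequenced from 26 libraries in 4 groups. The mice were male C57BL/6J of 2 to 3 months. Swim mice were collected 45 min after the start of a swim of 6 min in water at 18 °C, and control mice did not swim. The groups were control vHC (8 libraries), swim vHC (6), control dHC (6) and swim dHC (6), spread over 3 blocks that differ in date. The study's methods name 3 batches of library preparation, and the blocks were taken to be those. Every group had 2 libraries in each block except control vHC, which had 4 in block 1. Each of the 12 dHC libraries bears the number after that of a vHC library of the same condition and block, but the labels do not say that such neighbours come from the same mouse, and no pairing was used.

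miRNAs are short RNAs that guide an Argonaute protein to messenger RNAs through their seed, bases 2 to 8 from the 5′ end, and so lower the output of those messages. miR-7 is rich in neurons and in neuroendocrine cells. Cdr1as is a circular RNA of neurons with a very large number of miR-7 seed matches and a site with near-complete pairing to miR-671, at which it can be cut. Cyrano is a long noncoding RNA whose site pairs with nearly all of miR-7 and directs the degradation of that miRNA. Cdr1as and Cyrano themselves were not analysed here.

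The sequences come first because they decide which of the 4 entries can be counted apart. All 4 members matched RefSeq (GRCm38.p6). The 4 hairpins, with the bases of the mature products in capitals, are these:
mir-7a-1: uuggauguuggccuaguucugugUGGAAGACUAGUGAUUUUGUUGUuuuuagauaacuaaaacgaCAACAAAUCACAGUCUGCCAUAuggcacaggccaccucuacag
mir-7a-2: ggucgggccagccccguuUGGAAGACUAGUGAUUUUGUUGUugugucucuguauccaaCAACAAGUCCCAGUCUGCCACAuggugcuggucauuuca
mir-7b: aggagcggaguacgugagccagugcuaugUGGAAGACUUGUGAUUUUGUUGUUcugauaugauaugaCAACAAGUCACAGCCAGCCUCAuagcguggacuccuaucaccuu
mir-671: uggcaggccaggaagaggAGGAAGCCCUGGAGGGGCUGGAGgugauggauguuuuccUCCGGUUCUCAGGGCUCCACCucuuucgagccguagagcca

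In the GENCODE annotation of GRCm38, the mir-7a-1 hairpin (chr13:58392779-58392886, minus strand) lay in an intron of Hnrnpk, which encodes an RNA-binding protein. No other gene covered the hairpins of mir-7a-2 (chr7:78888277-78888373, plus strand) and mir-7b (chr17:56242988-56243098, plus strand). The mir-671 hairpin (chr5:24592114-24592211, plus strand) lay inside a coding exon of Chpf2, an enzyme gene of chondroitin synthesis, and opposite an exon of Smarcd3 on the other strand.

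The mature products show where the members are alike. They are printed with the seed in capitals:
miR-7a-5p: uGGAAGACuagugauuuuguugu
miR-7b-5p: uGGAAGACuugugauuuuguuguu
miR-671-5p: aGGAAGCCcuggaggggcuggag
miR-671-3p: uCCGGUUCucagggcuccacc
miR-7a-1-3p: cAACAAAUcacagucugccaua
miR-7a-2-3p: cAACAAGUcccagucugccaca
miR-7b-3p: cAACAAGUcacagccagccuca

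The hairpins mir-7a-1 and mir-7a-2 give the same 5p product, miR-7a-5p. The 7b product differs from it by A10U, counted from 1 at the 5′ end with the 7a base first, so 22 of 23 bases are equal and the seed is the same. The seed of miR-671-5p differs from that of miR-7 by A7C alone, so 6 of 7 seed bases are equal, while only 7 of 23 bases are equal over the whole product. Among 1738 mature entries of RefSeq, no miRNA other than miR-7a-5p and miR-7b-5p had the seed of miR-7, and none shared the 5p or the 3p seed of mir-671. The 3 passenger products of mir-7 are less alike: miR-7a-2-3p differs from miR-7a-1-3p by A7G, A10C and U21C, and its seed is the one miR-7b-3p has.

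The targets that make these miRNAs a network are written in the genome. GENCODE does not use the name Cdr1as, and the exon was recognized by its sites in transcript C230004F18Rik-206, so the site counts are a description. That exon (chrX:61183248-61186174, plus strand, 2927 bases) held 123 copies of GTCTTCC, the complement of the miR-7 seed. None lay on its other strand. Of 25516 other GENCODE transcripts of at least that length, 23.9% held the heptamer in their first 2927 bases, and none held it more than 4 times. The complement of the miR-671-5p seed, GGCTTCC, was present once in the exon, and 29.3% of the other transcripts held it. That copy belongs to a site at chrX:61186029-61186051 in which 19 of 23 bases pair with miR-671-5p without a gap. The Cyrano site lies at chr2:119602137-119602161 in transcript 1700020I14Rik-202, where 21 of 25 bases pair with miR-7a-5p around an unpaired stretch. Bases that pair are in capitals:
Cdr1as site of miR-671-5p: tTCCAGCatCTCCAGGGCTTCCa
Cyrano site of miR-7a-5p: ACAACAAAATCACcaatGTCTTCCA

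**Figure D1:**
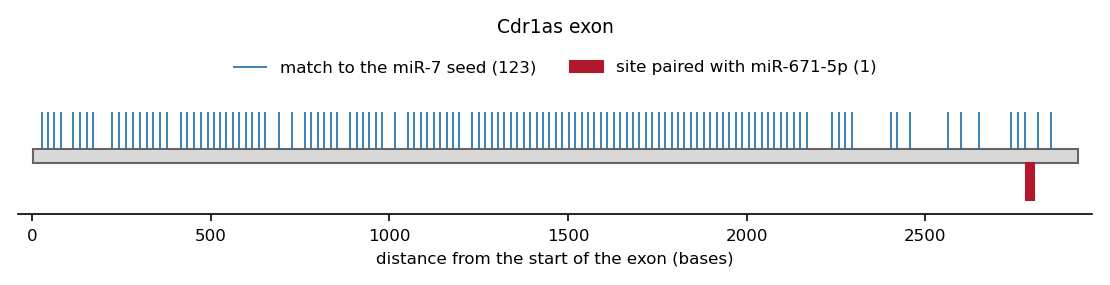
Positions of the 123 miR-7 seed matches (blue lines above the bar) and of the miR-671-5p site (red, below the bar) along the 2927 bases of the Cdr1as exon; the x axis is the distance from the start of the exon in bases. The seed matches run along nearly the whole exon, and the miR-671-5p site begins at base 2782.

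The table gives expected counts, in which a read that matches several entries is divided among them. All 78 values of the 3 mir-7 entries were multiples of 1/6 (within 0.02), and only 20 were whole. Their sum was whole in 26 of 26 libraries, and mir-671 was whole in 26 of 26. In every one of the 26 libraries mir-7b was the lowest of the 3 entries, but by little: 3 times its count made up between 90.6% and 98.0% of the summed count (median 95.1%), which is the most that could be counts shared by all 3. Each of the 6 stretches of 18 bases in miR-7a-5p, the shortest read length kept, holds the base that differs in 7b. How many mismatches the mapping allowed is not given in the sources used here. The 3 entries are therefore close to being 1 measurement, and 3 tests on them are not 3 findings. The summed count of mir-7, a row added after the division was seen, is the better determined value.

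mir-7 was an abundant miRNA of both regions and mir-671 a modest one. Levels below are CPM, the usual scaling of counts to a common library total, here the miRNA counts of a library with TMM factors. By mean CPM over the 26 libraries, mir-7a-1 ranked 60 of 1054 (4790), mir-7a-2 ranked 61 (4784), mir-7b ranked 65 (4452) and mir-671 ranked 221 (163). The 3 mir-7 entries together took 0.771% to 2.20% of a library's miRNA counts, and mir-671 took 0.00945% to 0.0229%. miRNA counts totalled 465387 to 4819724 per library. In the shallowest library, control dHC 24, mir-671 rested on 44 counts (95% Poisson interval 31.97 to 59.07, for counting error only), and no other library was that thin for it. The tissue was checked on 8 entries of neuronal miRNAs, whose summed level was between 78862 and 120000 CPM in every library.

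mir-7 was lower in dHC than in vHC, in control and in swim mice. In control mice the summed level ranged from 7236 to 12656 CPM in dHC (median 11177) and from 12788 to 24202 CPM in vHC (median 14685), and the groups did not overlap. The deposited entries mir-7a-1 and mir-7a-2 did not overlap either, whereas for mir-7b 5 of 6 dHC libraries lay below all vHC libraries. Of the 463 entries tested, 6.70% had groups without overlap, and 5.62% had every dHC library below every vHC library. In bulk tissue, fewer cells of a type that holds mir-7 and less mir-7 per cell cannot be told apart.

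With block as covariate, mir-7 summed was 1.58-fold lower in dHC of control mice (log2 difference −0.66, SE 0.13, edgeR's quasi-likelihood test, Benjamini-Hochberg adjusted p = 5.71e-04). As deposited, mir-7a-1 differed by −0.63 (SE 0.14), mir-7a-2 by −0.70 (SE 0.14) and mir-7b by −0.70 (SE 0.15) on the log2 scale, with edgeR adjusted p of 0.00113, 5.06e-04 and 0.0011. All 3 entries were thus called, against 22.5% of all entries tested in either direction and 14.7% called lower in dHC. Within block 1, block 2 and block 3 the summed difference was −0.80, −0.62 and −0.68, and the groups were apart in each block. The median entry differed by only 0.01 between the regions.

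After swim the same contrast was seen with one dHC library high. The summed level of mir-7 ranged from 8997 to 15783 CPM in dHC (median 10092) and from 14880 to 21610 CPM in vHC (median 16780). Of 6 dHC libraries, 5 lay below all vHC libraries, and dHC library 6, at 15783 CPM, lay above the lowest vHC library. In this contrast 5.83% of the entries tested had groups without overlap, and 4.75% lay wholly lower in dHC. The fitted log2 difference was −0.59 (SE 0.14, edgeR adjusted p = 0.00334), which is 1.51-fold lower in dHC. The entries as deposited differed by −0.56, −0.61 and −0.59, with edgeR adjusted p from 0.00405 to 0.00861. All 3 were called, where 20.3% of entries were called in either direction and 12.7% were lower in dHC. Within the blocks the summed difference was −0.36, −0.60 and −0.93.

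The direction of the mir-7 difference held under every alternative run, but the call did not. When the 2 surrogate variables used for the stress tests stood in place of block, none of the 3 entries was called in either region contrast. Their log2 differences in control mice were then −0.67 to −0.66 (SE 0.37 to 0.40), with edgeR adjusted p from 0.216 to 0.255. In that fit the second surrogate variable itself had 91.1% of its variance from region.

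mir-671 was not called between the regions. In control mice it ranged from 126 to 193 CPM in dHC (median 147) and from 148 to 236 CPM in vHC (median 177), with overlap. The log2 difference was −0.26 (SE 0.12, 95% interval −0.51 to −0.01), with an unadjusted edgeR p of 0.0434 and an adjusted p of 0.125. After swim it ranged from 131 to 194 CPM in dHC and from 121 to 177 CPM in vHC, and the difference was 0.03 (SE 0.13, interval −0.24 to 0.29, edgeR adjusted p = 0.948).

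**Figure D2:**
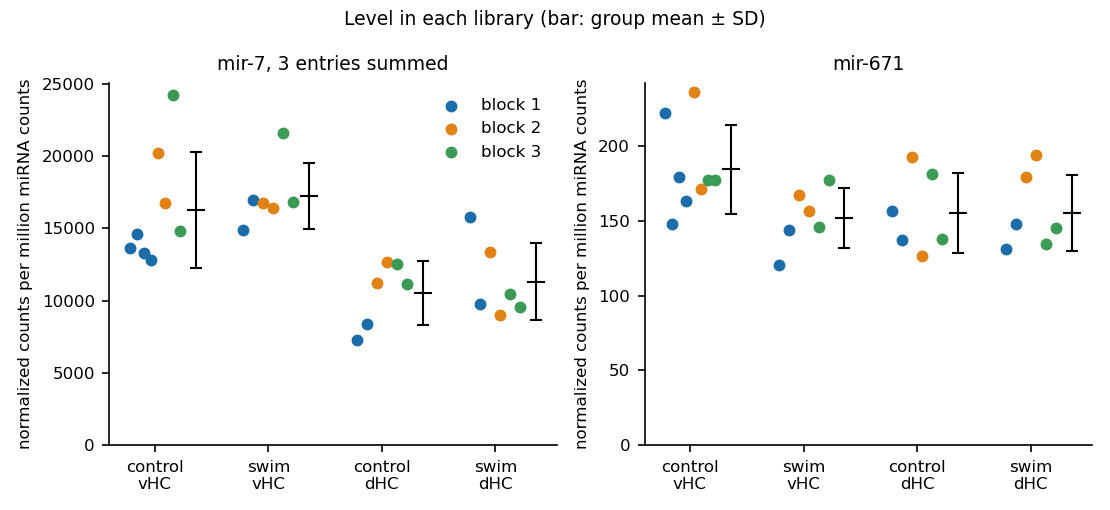
Level of mir-7 (3 entries summed, left) and mir-671 (right) in each of the 26 libraries, in CPM on a linear y axis from 0; points are libraries coloured by block, and the black bar is the group mean ± SD. For mir-7 all control dHC libraries (up to 12656) sit below all control vHC libraries (from 12788), while the mir-671 groups overlap.

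Swim stress was not followed by a called change of any member at 45 min. The question of this comparison was whether the miRNA pool responds within that time. Dropping both stress coefficients gave edgeR p of 0.554, 0.455 and 0.426 for mir-7a-1, mir-7a-2 and mir-7b and 0.0817 for mir-671, with adjusted p from 0.725 to 0.883. Among all entries 0 of 463 were called by edgeR in this joint test, in vHC, in dHC or in the interaction, while 16, 34, 17 and 23 entries had an unadjusted p under 0.05. DESeq2 called 0 of 463 in each of the 4 tests.

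For mir-7 the swim groups overlapped the control groups in both regions. In vHC the summed level after swim was 1.09-fold the control level (log2 0.12, SE 0.12, 95% interval −0.13 to 0.37, edgeR adjusted p = 0.744). In dHC it was also 1.09-fold (log2 0.12, SE 0.13, interval −0.15 to 0.38, edgeR adjusted p = 1.0). These intervals leave room for a change of up to 1.29-fold upward in vHC and 1.31-fold in dHC. Within blocks the vHC differences were 0.23, −0.15 and 0.01 and the dHC differences 0.67, −0.12 and −0.24, so the sign varied between blocks. Without swim vHC library 15 the 3 entries' vHC values turned to between −0.03 and −0.02, and without swim dHC library 6 their dHC values turned to between −0.05 and −0.03. Library 15 itself, at 16970 CPM summed, was near the swim vHC median of 16780 CPM. Why leaving it out moved the values was not tested.

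mir-671 had the lowest unadjusted p of the members, in vHC. After swim it ranged from 121 to 177 CPM (median 151), against 148 to 236 (median 177) in controls, and the groups overlapped. The log2 difference was −0.27 (SE 0.12, interval −0.51 to −0.03), or 1.21-fold lower, with an unadjusted edgeR p of 0.0277 and an adjusted p of 0.617. It was below 0 in each block (−0.42, −0.31 and −0.14), and between −0.29 and −0.16 when any 1 library was left out. In dHC the difference was −0.04 (SE 0.13, adjusted p = 0.999), and −0.08, 0.26 and −0.18 within the blocks. The interaction of region and stress was 0.24 (SE 0.17, edgeR adjusted p = 0.954), so the regions were not shown to differ in this response. For the 3 mir-7 entries as deposited the interaction was between 0.01 and 0.04 (SE 0.19 to 0.20).

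**Figure D3:**
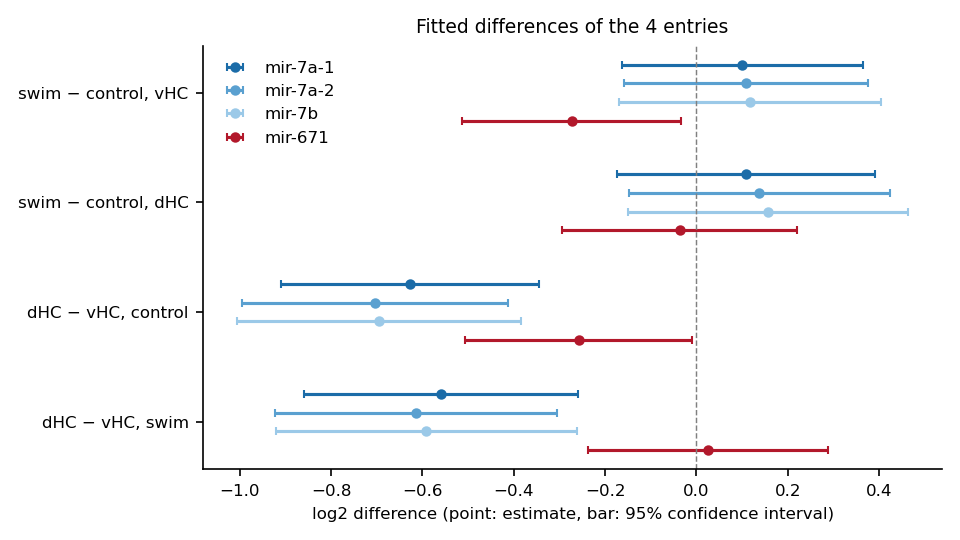
Fitted log2 differences of the 4 entries (points) with 95% confidence intervals (bars) for swim against control in vHC and dHC (surrogate variable fit) and for dHC against vHC in control and swim mice (block fit). The 3 mir-7 entries lie between −0.70 and −0.56 in both region contrasts with intervals below 0, and their stress intervals include 0; mir-671 lies at −0.27 for stress in vHC.

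Although the mir-7a hairpins share a 5p product, their counts were not quite equal, and the sign of the inequality followed region. Over 3 ratios and 4 contrasts, 12 exact permutation tests were made on log2 ratios within a library, and 3 passed an adjusted p of 0.05. mir-7a-1 was below mir-7a-2 in 8 of 8 control vHC and 6 of 6 swim vHC libraries. It was above in 5 of 6 control dHC and 6 of 6 swim dHC libraries. The sizes were small. The mean log2 ratio in control mice was 0.06 ± 0.06 in dHC (SD, n = 6) and −0.02 ± 0.01 in vHC (SD, n = 8). They differed by 0.08 (two-sided exact permutation p = 6.66e-04, adjusted over 12 tests 0.00799). Exchanging labels only within block gave an exact permutation adjusted p of 0.0222, and the block differences were 0.14, 0.06 and 0.05. After swim the means were 0.03 ± 0.02 in dHC and −0.02 ± 0.01 in vHC (SD, n = 6 each). These groups did not overlap, and the two-sided exact permutation p of 0.00216, the smallest this design allows, was 0.013 when adjusted. Within block the exact permutation p was 0.00926 over 216 rearrangements, again the smallest this design allows. Adjusted over the 12 tests it was 0.0556. With stress this ratio differed by −0.0024 in vHC and −0.03 in dHC, and neither passed (adjusted exact permutation p of 0.753 and 0.545).

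Each mir-7a entry was also set against mir-7b, the lowest entry, as a description without a test that was chosen after the values were seen. In control mice the mean log2 ratio of mir-7a-1 to mir-7b was 0.16 in dHC and 0.10 in vHC, and that of mir-7a-2 to mir-7b was 0.11 in dHC and 0.12 in vHC. After swim the means were 0.13 in dHC and 0.09 in vHC for mir-7a-1, and 0.09 and 0.11 for mir-7a-2. The ranges of dHC and vHC overlapped for both entries in control and in swim mice. In CPM, the excess of mir-7a-2 over mir-7b was 195 to 266 in control dHC and 377 to 468 in control vHC, and that of mir-7a-1 was 215 to 483 and 274 to 429. These differences in CPM also scale with the total of mir-7, which was lower in dHC, so they do not say which entry the shift in the ratio came from. The table does not say from which arm of the hairpin these counts came.

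The ratio of mir-7b to the mean of the mir-7a entries was not called in any of its 4 contrasts (differences −0.03 to 0.03 on the log2 scale, adjusted exact permutation p from 0.386 to 0.577). For the regions of control mice, exchanging labels only within block gave an exact permutation p of 0.0185, adjusted 0.0556.

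Counts of mir-7 per count of mir-671 were on average lower in dHC than in vHC. The difference was called only after swim, in the test that ignored block. Both are counts of hairpin entries, and the table does not say from which arm they came. The balance between the mature miRNA that Cdr1as binds at many sites and the one that can lead to its cutting was therefore not measured. The mean was 75.1 ± 24.8 in swim dHC and 115 ± 19.5 in swim vHC (SD, n = 6 each), and 69.3 ± 19.03 in control dHC (n = 6) and 89.4 ± 22.5 in control vHC (n = 8). On the log2 scale mir-671 relative to mir-7 was 0.66 higher in dHC after swim (two-sided exact permutation p = 0.0108, adjusted 0.0433). That call was lost when labels were exchanged only within block (adjusted exact permutation p = 0.0556), and when any 1 of 11 of the 12 libraries was left out (adjusted up to 0.0952). Of the 12 tests with 1 library left out it held in the one without swim dHC library 6 (difference 0.81, adjusted exact permutation p = 0.00866). In control mice the difference was 0.38 (exact permutation p = 0.0769, adjusted 0.185). Exchanging labels only within block gave an exact permutation p of 0.0278 there, adjusted 0.0667. The block differences in control mice were 0.54, 0.25 and 0.52, so within block neither region contrast passed and their adjusted p were close. With stress in vHC the log2 difference was −0.38 (exact permutation p = 0.0383, adjusted 0.115). Exchanging labels only within block gave an adjusted exact permutation p of 0.144, and the block differences were −0.65, −0.16 and −0.15. With 1 library left out the value ranged from −0.47 to −0.30 (adjusted exact permutation p from 0.0186 to 0.222). Of these 14 tests 1 passed, the one without control vHC library 25. With stress in dHC the log2 difference was −0.10 (adjusted exact permutation p = 0.751).

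**Figure D4:**
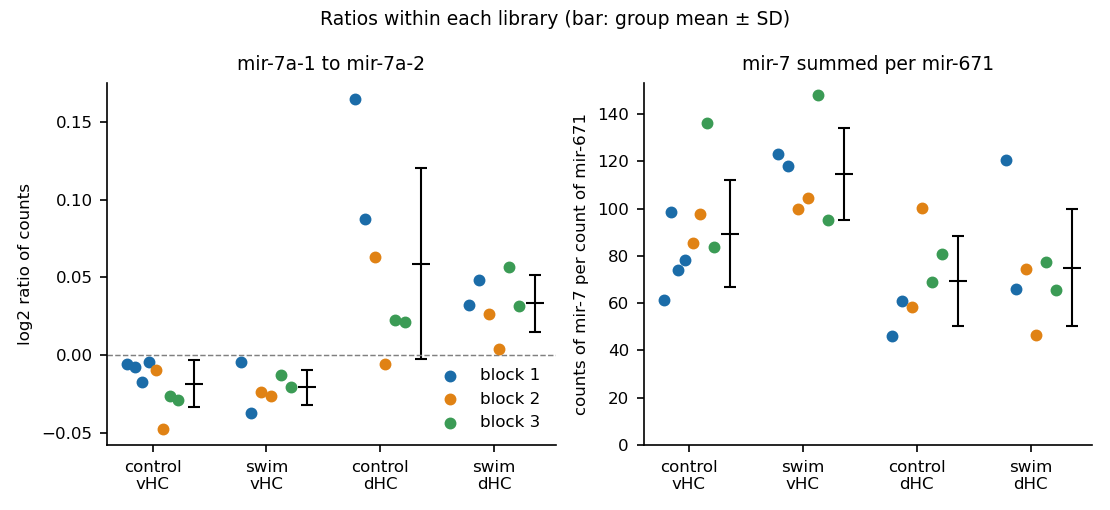
Left, log2 ratio of mir-7a-1 to mir-7a-2 counts in each library (dashed line at 0, equal counts); right, counts of mir-7 summed per count of mir-671 on a linear y axis from 0. Points are libraries coloured by block and the black bar is the group mean ± SD; all 14 vHC libraries lie below 0 on the left, and on the right swim vHC has the highest mean (115).

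Block moved much of the table and touched the members. The joint test of block called 246 of 463 entries (53.1%) and none of the 4 members by edgeR, for which, however, other settings called between 2 and 4. Against block 1, mir-671 was 0.26 higher in block 2 on the log2 scale (SE 0.11, edgeR adjusted p = 0.0436, with 52.5% of entries called in that contrast). In its separate fit, mir-7 summed was 0.33 higher in block 3 (SE 0.12, edgeR adjusted p = 0.0225, with 230 of 461 entries called). As deposited, the 3 mir-7 entries were not called in block 3 against block 1 (edgeR adjusted p from 0.0564 to 0.0724), where 52.1% of entries were. Between blocks 2 and 3 no entry was called by edgeR (51 had an unadjusted p under 0.05). Groups were balanced over blocks apart from the 4 control vHC libraries in block 1.

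Over the 26 libraries, the entries whose log2 CPM was most like that of summed mir-7 came from one chromosomal neighbourhood. They were mir-409 (Pearson r 0.91), mir-541 (0.85), mir-341 (0.84), mir-370 (0.84) and mir-382 (0.84). All 5 lie between positions 109611500 and 109743236 of chromosome 12, in the imprinted Dlk1-Dio3 region, and differed between dHC and vHC of control mice by −0.50 to −0.71 on the log2 scale. On residuals after region, stress, their interaction and block, the order was another, with mir-100 (0.83), mir-127 (0.82), let-7i (0.82), mir-99b (0.79) and mir-1839 (0.79). Of these, mir-127 (chr12:109592846-109592915) also lies in the imprinted region of chromosome 12. For mir-671 the most alike were mir-6412 (0.67), mir-329 (0.67), let-7d (0.66), mir-328 (0.64) and mir-3072 (0.60), and on residuals mir-484 and mir-6412 (both 0.72), mir-3061 (0.59), mir-483 (0.59) and mir-3470b (0.56). Here too, mir-329 (chr12:109713481-109713577) lies in the chromosome 12 neighbourhood named above, and mir-3072 (chr12:109747878-109747960) lies just past its end. The correlation of mir-7 with mir-671 was 0.20, and −0.14 on residuals. These correlations are descriptions, since the libraries share regions, blocks and depth.

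Of 8 entries of other miRNAs tied to target-directed degradation, 0 were called higher and 1 lower in dHC of control mice, and the same after swim. That share is near the 14.7% and 12.7% of all entries called lower. The entry was mir-335, at −0.74 in control mice (edgeR adjusted p = 6.67e-05) and −1.03 after swim (edgeR adjusted p = 1.96e-06). The list's median log2 difference was −0.05 in control mice and −0.19 after swim, beside 0.01 and −1.51e-04 over all entries. In the stress tests 0 of the 8 were called.

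miRNAs known from endocrine and epithelial cells, among which mir-7 is often counted, included the mir-200 family, which was lower in dHC. Of 9 listed, 8 were tested and 5 were called lower in dHC of control mice, and 0 higher, where 14.7% of all entries were called lower. These were mir-200b (−1.60, edgeR adjusted p = 1.97e-07), mir-200c (−1.19), mir-429 (−1.02), mir-200a (−1.003) and mir-141 (−0.76), the whole of that family. All 5 were called lower after swim too, where 12.7% of all entries were. The list's median was −0.88 in control mice and −1.05 after swim. mir-375, the best known miRNA of pancreatic islets and pituitary in the list, did not pass (0.04, edgeR adjusted p = 0.914). Neither mir-182 nor mir-183 was called between the regions, so every call in the list came from the mir-200 family. The list was chosen with earlier results of these data known. The list's summed level was 227 to 484 CPM in control dHC and 534 to 814 CPM in control vHC, far below that of mir-7. None was called with stress.

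Markers of other cell types also moved with region, and their part in the mir-7 difference was not tested. In control mice 3 of 3 oligodendrocyte entries and 5 of 5 entries of choroid plexus and ciliated cells were called higher in dHC, and 3 of 3 and 2 of 5 after swim. Over all entries 7.78% were called higher in dHC of control mice and 7.56% after swim. The oligodendrocyte sum was 4329 to 7617 CPM in control dHC, 3321 to 4939 in control vHC, 4578 to 6941 in swim dHC and 3638 to 4714 in swim vHC. In the same order the choroid plexus sum was 3086 to 5935, 2164 to 3280, 2457 to 4594 and 2358 to 3243 CPM. Of 5 blood cell and microglia entries tested, 2 were called lower in control dHC and 1 after swim (14.7% and 12.7% over all entries), with sums of 677 to 993 CPM in control dHC and 827 to 1033 in control vHC. Of 3 pituitary and other endocrine entries, which the endocrine list also holds, 2 were called lower in both contrasts. These were mir-141 and mir-200c, both counted above in the mir-200 family. The remaining entry, mir-375, was called in neither contrast (log2 difference 0.04 in control mice and 0.24 after swim). Sums were 89.8 to 192 CPM in control dHC and 118 to 201.7 in control vHC. After swim they were 86.3 to 303 CPM in dHC and 95.5 to 201.5 in vHC. The ranges overlapped in both contrasts. The 8 neuronal entries and the 1 endothelial entry tested were not called in either region contrast. The neuronal median log2 difference was 0.23 in control mice and 0.13 after swim, beside 0.01 and −1.51e-04 over all entries. The endothelial entry differed by 0.24 in control mice and −0.09 after swim. No entry of these lists was at 0 in all libraries of a group, except 1 of the 2 endothelial entries in every group but swim vHC.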

How the data were processed

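Total RNA was isolated with Trizol and made into small RNA libraries with a Nextflex kit that carries unique molecular identifiers (UMIs). Per the labels and the study's methods, the authors trimmed reads with cutadapt (version not given in the sources used here), kept reads of at least 18 bases, collapsed reads with the same sequence and UMI, and annotated them with Sports against GRCm38. The table they deposited holds expected counts, in which reads with several matches are divided among entries. The 26 count columns were matched to samples by title, with 0 columns left unmatched. The labels do not name the mouse behind each library, so p-values measure the spread between libraries, which may in part be technical. No pair of libraries of a group was identical or agreed within counting noise.

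From these values, miRNA entries were rounded, filtered with filterByExpr (minimum count 10, minimum total 15) and scaled by TMM, and tested with edgeR 4.0.16 quasi-likelihood fits (R 4.3.3), adjusting by Benjamini-Hochberg over all 463 entries tested. Values of mir-7 summed came from a separate fit in which 1 row replaced the 3 entries, adjusted over the 461 entries tested there. Stress was fitted with region and 2 surrogate variables (sva 3.50.0), region with block, over all 26 libraries; DESeq2 1.42.0 served as an alternative. SE and intervals were derived from the fits at 95%. Ratios were tested by two-sided exact permutation (Python 3.11.15, scipy 1.17.1), also within block. The scripts were tested on simulated counts with known changes but no block effect, so that test does not cover how block or surrogate variables bear on the calls. Sequences came from RefSeq and GENCODE vM21 on GRCm38.

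The members, the lists and the rule for named entries (the members, the 5 entries most like mir-7 and mir-671 by Pearson r on each scale, entries sharing a seed, and called list members) were chosen with earlier results of these data known. Depth was 465387 to 4819724 miRNA counts. mir-671 had 200 to 835 counts in 25 libraries and 44 in the shallowest.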

Additional observations from a re-analysis of the deposited data

Results flagged for a closer look

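In the swim vHC group, library 27 stood above the other 5 libraries for mir-7. The summed level was 21610 CPM, and the next library had 16970 CPM. By entry it had 7287 CPM of mir-7a-1 (next 5696), 7352 CPM of mir-7a-2 (next 5846) and 6971 CPM of mir-7b (next 5428). The gap to the nearest library exceeded Dixon's 95% critical value for 6 samples. Of 32 group values looked at, 4 met this criterion, and chance alone flags about 1 in 20 groups. The 4 are close to 1 measurement, because the entries share most of their counts.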

How the results depend on the processing

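No paired analysis was possible because the labels give no number shared between groups. Pairing neighbouring numbers across regions would have been a guess and was not run. Under each of 10 alternatives and with any 1 library left out, 0 members were called for stress. The 3 mir-7 calls in each region contrast held in all left-out fits and in all alternatives except surrogate variables in place of block, where 0 were called in control mice and 0 after swim; there mir-671 after swim turned to −0.10. Other scalings moved the balance of all calls in control mice from 36 higher and 68 lower to 66 and 64 (DESeq2's size factors), 63 and 64 (TMMwsp) or 73 and 60 (DESeq2), without turning mir-7. Members called for block were 0 in the reported fit, 4 with DESeq2's size factors, 3 with TMMwsp, 2 with no filter, 3 with library size over the whole table, 4 with DESeq2, 3 with precursor copies summed, 3 without rounding and 3 with mir-7 summed (chosen after seeing the data), and 0 to 3 with a library left out. The count with mir-7 summed is 1 row (edgeR adjusted p = 0.0383) counted for its 3 entries. With precursor copies summed, mir-7a-1 and mir-7a-2 are likewise 1 row. Of the 12 ratio tests, 1 was called with labels exchanged within block, where mir-7a-1 to mir-7a-2 turned to 8.48e-04 for stress in vHC, and 2 to 4 with a library left out. Within block, the region test of mir-7a-1 to mir-7a-2 after swim was already at the smallest p it could reach, so it could not pass more strongly.

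The interaction of mir-7, near 0, turned negative in several settings. For mir-7a-1 it was −0.055 with DESeq2's size factors, −0.067 with TMMwsp, −0.014 with library size over the whole table, −0.055 with DESeq2, −0.034 with copies summed, −0.026 without rounding and −0.0030 with mir-7 summed. For mir-7a-2 it was −0.035, −0.047 (TMMwsp), −0.035 (DESeq2), −0.034 (copies summed), −0.0051 (no rounding) and −0.0030, and for mir-7b −0.023, −0.035 (TMMwsp), −0.023 (DESeq2), −0.016 (copies summed) and −0.0030. The cause was not tested. With a library left out the interaction ranged from −0.17 to 0.078 for mir-7a-1, −0.15 to 0.10 for mir-7a-2 and −0.16 to 0.12 for mir-7b. Values near 0 that changed sign when a library was left out were those for stress in vHC (mir-7a-1 −0.022 to 0.16, mir-7a-2 −0.021 to 0.17, mir-7b −0.026 to 0.18), stress in dHC (−0.051 to 0.17, −0.032 to 0.20, −0.034 to 0.22, and mir-671 −0.11 to 0.037), mir-671 after swim between regions (−0.039 to 0.081), block 3 against block 2 (mir-7a-1 −0.049 to 0.088, mir-7a-2 −0.056 to 0.082, mir-7b −0.058 to 0.090), mir-671 to mir-7 for stress in dHC (−0.23 to 0.049) and mir-7a-1 to mir-7a-2 for stress in vHC (−0.0065 to 9.55e-04). Depth limits mir-671 mainly in the shallowest library, with 44 counts.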
